A study of Mus musculus with 8 samples.

Results

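Genes of cholesterol synthesis, uptake, lysosomal release, storage and efflux were chosen by symbol from a list of 32, and 31 of them were rows of the expression table of 16505 genes. Levels of Hmgcs1 were not analysed here. The tissue was epididymal white fat, a visceral depot of male mice. The groups were 4 wild type C57BL/6 mice (WT) and 4 C57BL/6 mice carrying the Mir181 double-knockout (the knockout, DKO in the plots), and both groups had eaten a high fat diet for 12 weeks. The labels name neither the deleted miR-181 loci nor any cell type to which the deletion is limited, and they leave out age, litter and housing. The p-values therefore reflect only how far these 8 samples varied. Messenger RNA was sequenced, and levels are log2 CPM, the log2 of read counts scaled to a common library total. Changes are knockout minus WT on this log2 scale, ± SE from limma, and a gene is said to rise or fall where its Benjamini-Hochberg adjusted p over the 13797 genes tested was under 0.05. All 31 members passed the filter on low values, a mean log2 CPM of 0 or more, and the fewest reads behind any member in any library were 24.

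Cells make cholesterol from acetyl-CoA through mevalonate, isoprenoid pyrophosphates and squalene, and SREBP2, the product of Srebf2, switches on the genes of this route when sterols in the endoplasmic reticulum are low. Cholesterol taken up in lipoproteins or with engulfed cells is freed in lysosomes by acid lipase (Lipa), passed on by Npc2 and Npc1, re-esterified for storage by Soat1, or exported by Abca1 and Abcg1 to apolipoproteins such as ApoE under the control of the sterol-sensing receptor LXR-alpha (Nr1h3). White fat is a large store of unesterified cholesterol held in fat cells, while macrophages in obese fat clear lipid of dying fat cells through their lysosomes.

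The miR-181 family is shown because the genotype rests on it, although which of its members were deleted is not named. RefSeq (GRCm38.p6) lists 4 mature 5′ forms of the family, printed here 5′ to 3′ with the seed (bases 2 to 8) in capitals. All 4 share that seed.
miR-181a-5p: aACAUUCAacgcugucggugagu
miR-181b-5p: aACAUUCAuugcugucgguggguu
miR-181c-5p: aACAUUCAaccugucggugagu
miR-181d-5p: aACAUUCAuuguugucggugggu
The sequence that pairs with the seed, TGAATGT, occurred in the longest GENCODE M21 3′ untranslated region of 6 of the 31 members, against 19.3% of the 12867 tested genes with such a region. The 6 members were Fdft1, Nsdhl, Hsd17b7, Insig2, Npc2 and Soat1. Among them Fdft1 and Insig2 rose, Soat1 fell and the other 3 did not pass the threshold. Of the 2479 tested genes with a match, 21.8% were called higher and 17.3% lower, close to the shares over all tested genes. The matches of the 3 that changed are printed with the 8 bases on either side in lower case, and Soat1 held 2 of them.
Fdft1: cagccttcTGAATGTacgagtta
Insig2: tgtttagaTGAATGTgcttggga
Soat1: ttgatggaTGAATGTattaaaat
Soat1, further match: aggtacaaTGAATGTtctgaatg
A match describes letters only, and pairing with the microRNA was not measured.

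Of the 31 members, 6 rose and 6 fell, together 38.7%, against a background of 38.8% of all tested genes (22.7% higher and 16.1% lower). Over all genes that split was 3137 higher to 2216 lower, and with median centring of the libraries it was 2444 to 2825. The number of members that changed was thus near that of the transcriptome, and their median change was −0.11, against 0.18 over all tested genes. The members that rose were Insig2, Mvk, Fdft1, Scarb1, Nr1h3 and Acat2. Those that fell were Npc1, Lipa, Soat1, Abcg1, Dhcr7 and Msmo1. Of the 31 members, 2 were higher without overlap of the 4 WT and 4 knockout values (Mvk and Insig2). Another 6 of the 31, the 6 that fell, were lower without overlap. Over all tested genes, 20.8% and 16.6% were without overlap upward and downward, near the shares called. Of the 6 falls, 5 were more than 2-fold (all but Msmo1), against 53.3% of the lower calls over all genes, and 2 of the 6 rises were (Fdft1 and Acat2), against 45.6% of the higher calls.

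**Figure D1:**
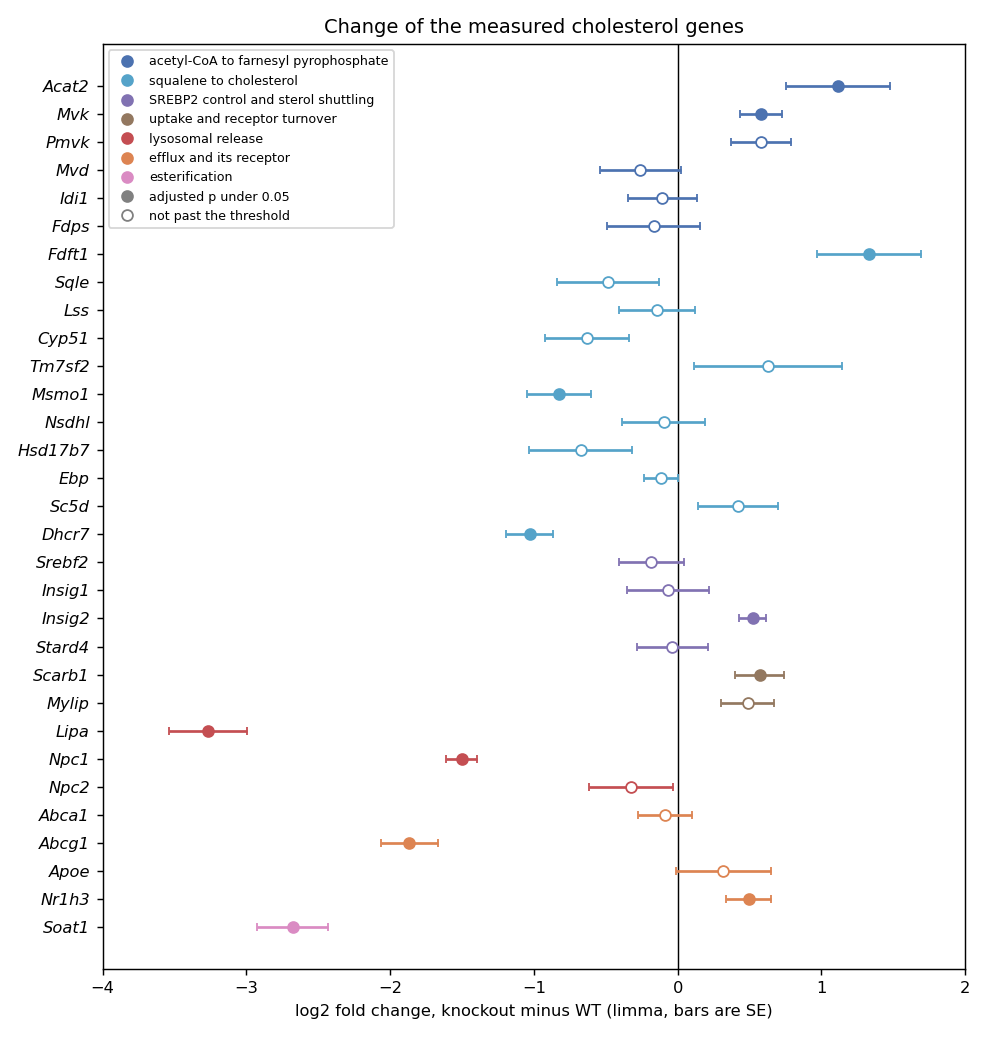
Log2 fold change (knockout minus WT, x axis) of the 31 measured cholesterol genes in order of their roles, with SE bars from limma over 4 WT and 4 knockout libraries. Filled points passed an adjusted p under 0.05. Lipa, Soat1, Abcg1 and Npc1 lie far to the left at −3.27, −2.68, −1.87 and −1.50, while the synthesis enzymes lie on both sides of 0 between −1.03 and 1.33.

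Library facts that touch these values were as follows. Whole-read totals ran from 3736881 to 76838584, and ribosomal RNA genes exceeded 1% of reads in WT replicates 1, 3 and 4 and knockout replicate 1. Differences inside the ribosomal-rich class (3 WT and 1 knockout) and inside the ribosomal-poor class (1 WT and 3 knockout) are given below in that order, without error because one side of each is a single library. Markers of the epididymis took 1.38%, 2.33% and 1.13% of the reads of 3 libraries (WT replicate 2, then knockout replicates 2 and 4) and at most 0.00458% of the others. Fat cell markers were present in every library: 12 of 12 were in the table, none was at 0, and together they took 0.871% to 1.56% of reads in WT and 2.32% to 3.93% in the knockout, with 11 of the 12 higher. Macrophage markers (17 of 17 in the table, none at 0 in any library) took 1.05% to 1.21% of reads in WT and 0.211% to 0.289% in the knockout, and 16 of the 17 fell. Of the other lists, all 5 endothelial markers and 3 of 4 mesothelial markers rose, 2 of 5 fibroblast markers (Col1a1 and Col1a2) fell, 2 of 5 red blood cell markers rose, and none of 7 lymphocyte or 11 epididymis markers passed with limma (at an unadjusted p under 0.05, 2 and 0 were higher and none lower). All 5 red blood cell markers were higher at an unadjusted limma p under 0.05. They took 0.083%, 0.042%, 0.406% and 1.19% of reads in knockout replicates 1 to 4, and at most 0.047% in WT. Their part in splits of knockout replicates 1 and 2 from 3 and 4 was not tested. In RNA from whole tissue, fewer cells of a type and less RNA per cell cannot be told apart.

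Lysosomal release held the member with the deepest fall, Lipa. Lipa encodes lysosomal acid lipase, which splits cholesteryl esters and triglycerides delivered to lysosomes. Its levels were 10.57, 10.60, 10.49 and 10.75 log2 CPM in WT replicates 1 to 4 and 8.10, 7.57, 6.99 and 6.70 in knockout replicates 1 to 4. Every knockout library lay more than 2 log2 units under every WT library, and the WT libraries stayed within 0.26 of each other while the knockout ones spread over 1.40. Lipa fell by 3.27 ± 0.27, a 9.62-fold lower level (limma adjusted p = 5.77e-05), and by 2.51 and 3.51 within the 2 classes of ribosomal RNA.

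Npc1, the lysosomal membrane protein that moves freed cholesterol out of the organelle, stood at 7.28, 7.36, 7.34 and 7.48 in WT and at 6.10, 5.83, 5.87 and 5.65 in the knockout. The groups were well apart, and the change of −1.50 ± 0.11 (2.83-fold lower, limma adjusted p = 3.28e-05) had the smallest p of the 31 members. In GENCODE M21 the Npc1 exons overlap those of Rmc1 on the opposite strand. Within the classes it fell by 1.27 and 1.58. Npc2, the soluble carrier that hands cholesterol to Npc1, behaved otherwise: its WT values of 9.42, 10.14, 9.89 and 9.96 overlapped the knockout values of 9.46, 10.37, 8.96 and 9.31. The Npc2 difference of −0.32 ± 0.29 did not pass (limma adjusted p = 0.404), and knockout replicate 2 held the highest value of all 8 libraries. Without that library the Npc2 difference was −0.61 and passed (limma adjusted p = 0.0492). The 2 carriers of 1 transport step therefore had different calls, but the difference between their changes was not tested.

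Storage by esterification was represented by Soat1, the acyltransferase of the endoplasmic reticulum that turns free cholesterol into droplet esters. Soat1 stood at 7.76, 7.69, 7.76 and 7.98 in WT and at 5.63, 5.57, 4.58 and 4.69 in the knockout. Its values fell into 2 pairs in the knockout, replicates 1 and 2 above replicates 3 and 4, and all lay under WT. Soat1 changed by −2.68 ± 0.25, or 6.40-fold lower (limma adjusted p = 8.72e-05), with −2.20 and −2.74 within the classes. Nceh1, a neutral cholesteryl ester hydrolase that works against Soat1 in macrophages, also fell, from 8.07, 8.08, 8.31 and 8.39 to 5.61, 5.03, 4.50 and 4.61, a change of −3.27 ± 0.23 (limma adjusted p = 2.68e-05). Lipe, the hormone-sensitive lipase of fat cells that also hydrolyses cholesteryl esters, went the other way, with a rise of 1.87 ± 0.25 (limma adjusted p = 0.000601). It was also in the fat cell marker list.

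The 2 ABC exporters differed in their calls. Abcg1, which loads cholesterol onto HDL particles, stood at 7.74, 7.61, 7.51 and 7.56 in WT against 6.17, 5.58, 6.02 and 5.19 in the knockout. The groups did not overlap, and Abcg1 fell by 1.87 ± 0.20, a 3.65-fold lower level (limma adjusted p = 0.000185), with differences of −1.43 and −2.02 within the classes. Abca1, which loads lipid-poor apolipoprotein A-I, had values of 8.83, 8.40, 8.58 and 8.05 in WT and 8.59, 8.24, 8.59 and 8.10 in the knockout. The range of the knockout values lay inside that of WT, and the difference of −0.09 ± 0.19 did not pass (limma adjusted p = 0.738). Its sign changed under some settings (0.10 without the 3 libraries rich in epididymis reads), and whether the changes of Abca1 and Abcg1 differ was not tested.

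Nr1h3 encodes LXR-alpha, the oxysterol receptor that induces both exporters. It stood at 6.25, 6.01, 6.46 and 6.05 in WT and at 6.48, 6.43, 6.98 and 6.86 in the knockout, where knockout replicate 2 lay just under WT replicate 3. The rise was 0.49 ± 0.16 (limma adjusted p = 0.0343), with 0.23 and 0.75 within the classes. The call ended under 9 of the 17 settings tried, among them median centring of the libraries (0.35, limma adjusted p = 0.125) and leaving out WT replicate 1, 2 or 4 or knockout replicate 3 or 4 (0.40 to 0.51, adjusted p from 0.0649 to 0.0957). Apoe, the apolipoprotein that accepts exported cholesterol, had values of 11.30, 11.29, 10.88 and 10.81 in WT and 10.84, 10.80, 12.07 and 11.83 in the knockout. The knockout libraries thus split, with replicates 1 and 2 near the lowest WT library and replicates 3 and 4 above every WT library, and the difference of 0.32 ± 0.33 did not pass (limma adjusted p = 0.469).

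Over the 7 genes of lysosomal release and efflux, 3 fell and 1 rose (57.1% called, against 38.8% of all tested genes), with a median change of −0.32. The 3 release genes had a median change of −1.50 and the 4 efflux genes one of 0.12. Of the 17 macrophage markers, 16 moved with the 4 large falls of Lipa, Npc1, Abcg1 and Soat1, at the shares of reads given above: Adgre1, the gene of the macrophage protein F4/80, changed by −2.90 ± 0.16 (limma adjusted p = 1.26e-05). The part of these markers in the 4 falls was not tested. With the 3 libraries holding over 1% epididymis reads left out, Lipa, Npc1, Abcg1 and Soat1 changed by −3.06, −1.38, −1.51 and −2.73, and all 4 passed (limma adjusted p of at most 0.000382).

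**Figure D2:**
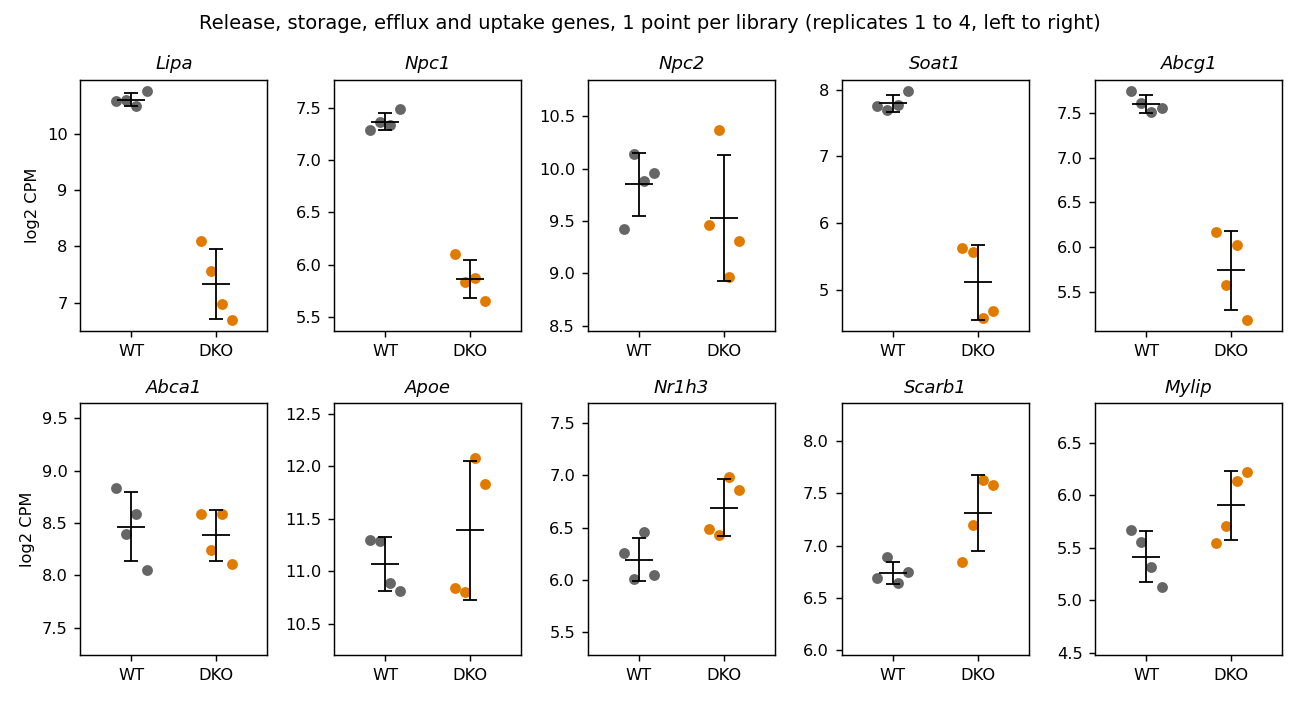
Log2 CPM (y axis, with its own range in each panel) of 10 genes of release, storage, efflux and uptake, 1 point per library (4 WT grey, 4 knockout orange), with the group mean and SD as black bars. Lipa, Npc1, Soat1 and Abcg1 have every knockout point under every WT point, Abca1 and Npc2 overlap, and Scarb1 lies lowest in knockout replicate 1 among the knockout points.

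Of the 2 uptake genes, 1 rose. Scarb1 encodes SR-BI, the HDL receptor that takes up cholesteryl esters. Its levels were 6.69, 6.89, 6.64 and 6.74 in WT and 6.84, 7.20, 7.63 and 7.57 in the knockout, with only knockout replicate 1 inside the WT range. Scarb1 rose by 0.57 ± 0.17 (limma adjusted p = 0.0272), by 0.15 and 0.58 within the classes. That call ended under 7 of the 17 settings (0.37 to 0.57, adjusted p from 0.0653 to 0.0969), which included leaving out WT replicate 1, 3 or 4 or knockout replicate 3 or 4. Mylip, an LXR-induced ubiquitin ligase that sends lipoprotein receptors to degradation, stood at 5.67, 5.56, 5.32 and 5.12 in WT and 5.55, 5.71, 6.14 and 6.22 in the knockout, and its difference of 0.49 ± 0.18 did not pass (limma adjusted p = 0.0624). It passed without knockout replicate 1 (0.61, adjusted p = 0.0233).

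Synthesis showed no common direction. Of the 17 measured enzymes, 3 rose and 2 fell, 29.4% against the background of 38.8%, and the other 12 did not pass. Their median change was −0.12. Among the 6 measured enzymes from acetyl-CoA to farnesyl pyrophosphate, 2 rose and none fell (0 at an unadjusted p under 0.05 as well), with a median of 0.24, and among the 11 from squalene synthase to cholesterol 1 rose and 2 fell, with a median of −0.14.

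The enzymes that rose stood at the start of the route and at the entry into sterols. Acat2, the cytosolic thiolase that joins acetyl-CoA units, had levels of 3.69, 5.22, 5.12 and 4.66 in WT and 5.15, 6.02, 5.67 and 6.30 in the knockout. WT replicate 1 lay well under the other WT libraries, and knockout replicate 1 fell within the WT range. The rise was 1.12 ± 0.36 (limma adjusted p = 0.0358), and 0.66 and 0.78 within the classes. It lost its call under 7 of the 17 settings, among them leaving out WT replicate 1 (0.79, adjusted p = 0.0652), WT replicate 4 or knockout replicate 2, 3 or 4. The others were the ribosomal RNA class in the fit and leaving out the epididymis-rich libraries. Acat3, a near-identical paralog, is in the same table at −3.55 to 3.13 log2 CPM and rose by 3.01 ± 1.03 (limma adjusted p = 0.045). Its groups overlapped, and its fewest reads in any library were 0, so the rise includes values at the floor. How reads matching both genes were counted is unknown here, and whether they bear on Acat2 was not tested.

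Mvk, mevalonate kinase, stood at 4.13, 4.23, 4.57 and 3.95 in WT and at 4.71, 4.93, 4.82 and 4.73 in the knockout. The groups did not overlap, the knockout libraries lay within 0.23 of each other, and Mvk rose by 0.58 ± 0.15 (limma adjusted p = 0.0139; 0.49 and 0.60 within the classes). It lost its call without the 3 libraries of over 1% epididymis reads (0.55, adjusted p = 0.108). The next enzyme, Pmvk (phosphomevalonate kinase), differed by a like amount, 0.58 ± 0.21, without passing (limma adjusted p = 0.0552): its WT values of 4.84, 5.43, 5.95 and 5.33 reached into the knockout values of 5.89, 6.18, 5.90 and 5.89. With WT replicate 3 left out, Pmvk passed (0.77, adjusted p = 0.0102).

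Fdft1 is squalene synthase, the first enzyme committed to sterols. Its levels were 3.79, 5.60, 5.0 and 4.86 in WT and 5.59, 6.44, 6.01 and 6.55 in the knockout, so that knockout replicate 1 lay just under WT replicate 2. Fdft1 had the largest rise of the members, 1.33 ± 0.36, or 2.52-fold (limma adjusted p = 0.0182), with 1.04 and 0.73 within the classes. Adding that class to the fit ended the call (0.88, limma adjusted p = 0.0552). In GENCODE M21 its exons overlap those of Ctsb on the opposite strand. How strand was treated in counting is unknown here, and Ctsb itself changed by −1.86 ± 0.24.

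Between the groups, the fat cell markers (11 of 12 higher, at the shares of reads given above) had the same direction as Acat2, Mvk and Fdft1. Scarb1, Nr1h3 and Insig2 in the other roles had that direction too. The part of the fat cell markers in these rises was not tested. Acat2 and Fdft1 were highest in WT replicate 2 within WT and in replicates 2 and 4 within the knockout. Those libraries were the ones with over 1% epididymis reads, and the part of such reads in the 2 rises was not tested.

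The enzymes that fell act late, on the sterol ring and its methyl groups. Dhcr7, which reduces 7-dehydrocholesterol to cholesterol in the last step of one branch, stood at 5.13, 5.19, 5.26 and 5.17 in WT and at 4.37, 4.50, 3.91 and 3.85 in the knockout. Its WT values lay within 0.14 of each other, the narrowest WT range among the 31 members, and no knockout value came near them. Dhcr7 fell by 1.03 ± 0.16, a 2.04-fold lower level (limma adjusted p = 0.00136), and by 0.81 and 1.10 within the classes. Msmo1, the methylsterol monooxygenase that strips the C4 methyl groups, had levels of 5.97, 6.34, 6.30 and 6.35 in WT and 5.59, 5.88, 4.75 and 5.43 in the knockout. The groups came close to each other at WT replicate 1 and knockout replicate 2 without overlapping. Msmo1 fell by 0.82 ± 0.22 (limma adjusted p = 0.0171; 0.61 and 0.98 within the classes), and just missed the threshold without WT replicate 4 (−0.79, adjusted p = 0.0517).

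Several other enzymes of the route had lower means in the knockout without passing. Cyp51, the lanosterol demethylase that acts before the C4 demethylation, stood at 5.63, 6.15, 6.27 and 6.22 against 5.72, 6.07, 4.61 and 5.35. The Cyp51 difference was −0.63 ± 0.29 (limma adjusted p = 0.114). Knockout replicates 1 and 2 lay within the WT range there and replicates 3 and 4 below it. Without knockout replicate 2 Cyp51 passed (−0.84, adjusted p = 0.0374), as it did with voom on whole reads (−0.90, adjusted p = 0.0449). Its exons overlap those of Akap9 on the opposite strand. Hsd17b7, the 3-ketosterol reductase, stood at 3.82, 4.33, 4.76 and 4.61 against 4.28, 4.38, 3.01 and 3.15, a difference of −0.68 ± 0.36 (limma adjusted p = 0.158). The same 2 knockout libraries, replicates 3 and 4, held its low values. Sqle, squalene epoxidase, which makes a rate-limiting oxidation, differed by −0.48 ± 0.36 (limma adjusted p = 0.306).

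The remaining synthesis enzymes did not pass. Idi1 (isopentenyl isomerase), Fdps (farnesyl pyrophosphate synthase), Mvd (mevalonate decarboxylase), Lss (lanosterol synthase), Nsdhl (a C4 decarboxylating dehydrogenase) and Ebp (sterol isomerase) differed by between −0.26 and −0.10, with limma adjusted p from 0.457 to 0.809. Nsdhl differed by −0.37 without knockout replicate 2 (limma adjusted p = 0.195). Sc5d (sterol C5 desaturase) differed by 0.42 ± 0.28 (limma adjusted p = 0.26), passed with the ribosomal class in the fit (0.76, adjusted p = 0.0398), and had its highest value, 7.84, in knockout replicate 1. Tm7sf2, a sterol C14 reductase whose exons overlap those of Vps51, had levels of 2.75, 4.21, 3.06 and 2.79 in WT and 2.71, 4.90, 3.25 and 4.45 in the knockout. Its 3 highest libraries, WT replicate 2 and knockout replicates 2 and 4, were the 3 with over 1% epididymis reads, and the part of these reads in the values was not tested. The Tm7sf2 difference was 0.63 ± 0.51 (limma adjusted p = 0.356), and −0.15 and −0.01 within the classes.

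**Figure D3:**
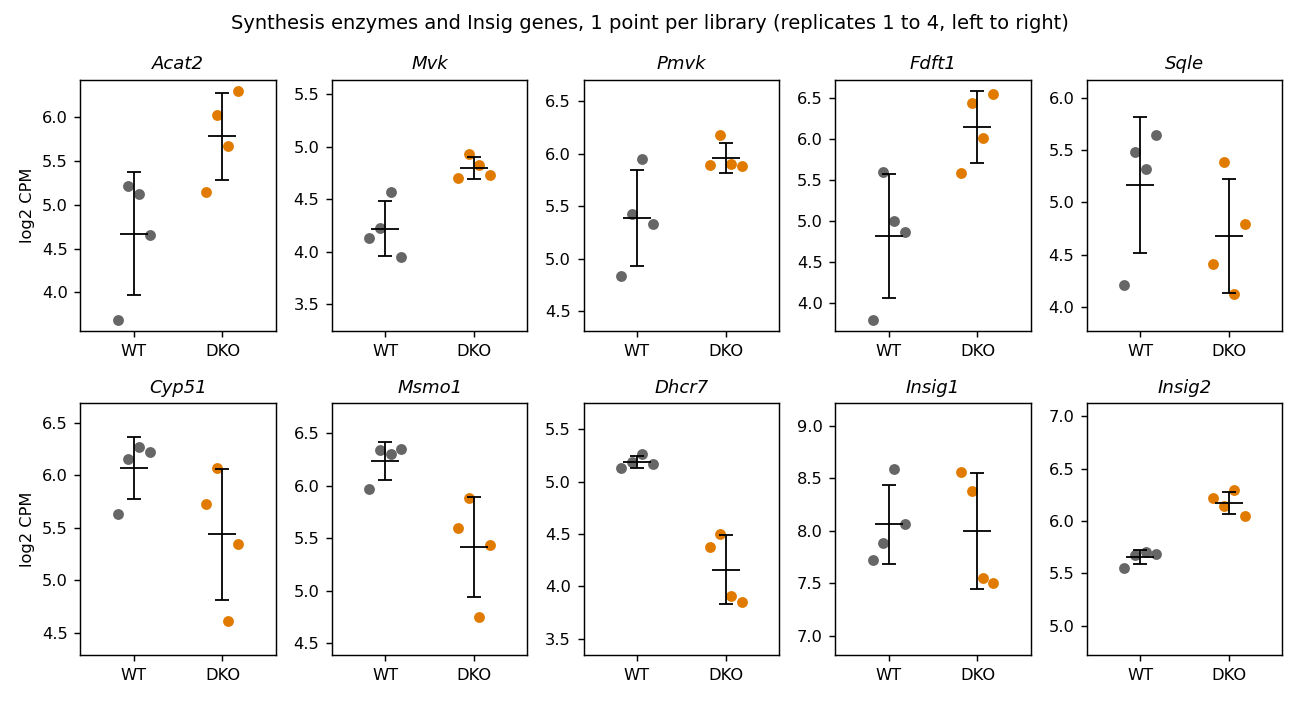
Log2 CPM (y axis, with its own range in each panel) of 8 synthesis enzymes and the 2 Insig genes, 1 point per library (4 WT grey, 4 knockout orange), with the group mean and SD as black bars. Dhcr7 and Insig2 show narrow WT groups apart from the knockout, Mvk and Msmo1 are apart with smaller gaps, and WT replicate 1 is the lowest WT point in Acat2, Pmvk, Fdft1, Sqle and Cyp51.

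The synthesis enzymes shared a pattern among the libraries of each group. WT replicate 1 held the lowest WT value for 16 of the 17 enzymes, where it was lowest for 39.4% of all tested genes, and knockout replicate 2 held the highest knockout value for 13 of the 17 (24% of all tested genes). Knockout replicate 3 was the lowest of its group for 9 of the 17 (15.1% of all genes). Relative to the WT mean of each gene, the median of the 17 was −0.49, 0.08, 0.22 and 0.08 in WT replicates 1 to 4 and −0.19, 0.29, −0.47 and −0.19 in knockout replicates 1 to 4. The span within each group was thus wider than the difference between the groups. The same median over the 7 genes of lysosomal release and efflux was 0.06, −0.01, −0.03 and −0.05 in WT and −0.39, −0.27, −0.89 and −0.54 in the knockout, so that here the 2 groups were apart and WT replicate 1 was not low. The 3 release genes alone were further apart, with a median of −0.08, −0.01, −0.03 and 0.12 in WT and −1.27, −1.53, −1.50 and −1.72 in the knockout. Abcg1, an efflux gene, was also lower in all 4 knockout libraries. The median of the 4 efflux genes overlapped between the groups, at 0.18, −0.03, 0.01 and −0.20 in WT and −0.05, −0.25, 0.45 and 0.15 in the knockout. Over all tested genes it was −0.09, 0.09, 0.03 and −0.05 in WT and −0.02, 0.20, 0.19 and 0.28 in the knockout. Synthesis minus release and efflux gave −0.55, 0.09, 0.24 and 0.13 in WT and 0.20, 0.56, 0.41 and 0.35 in the knockout, values that overlap only through knockout replicate 1, which lies under WT replicate 3.

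**Figure D4:**
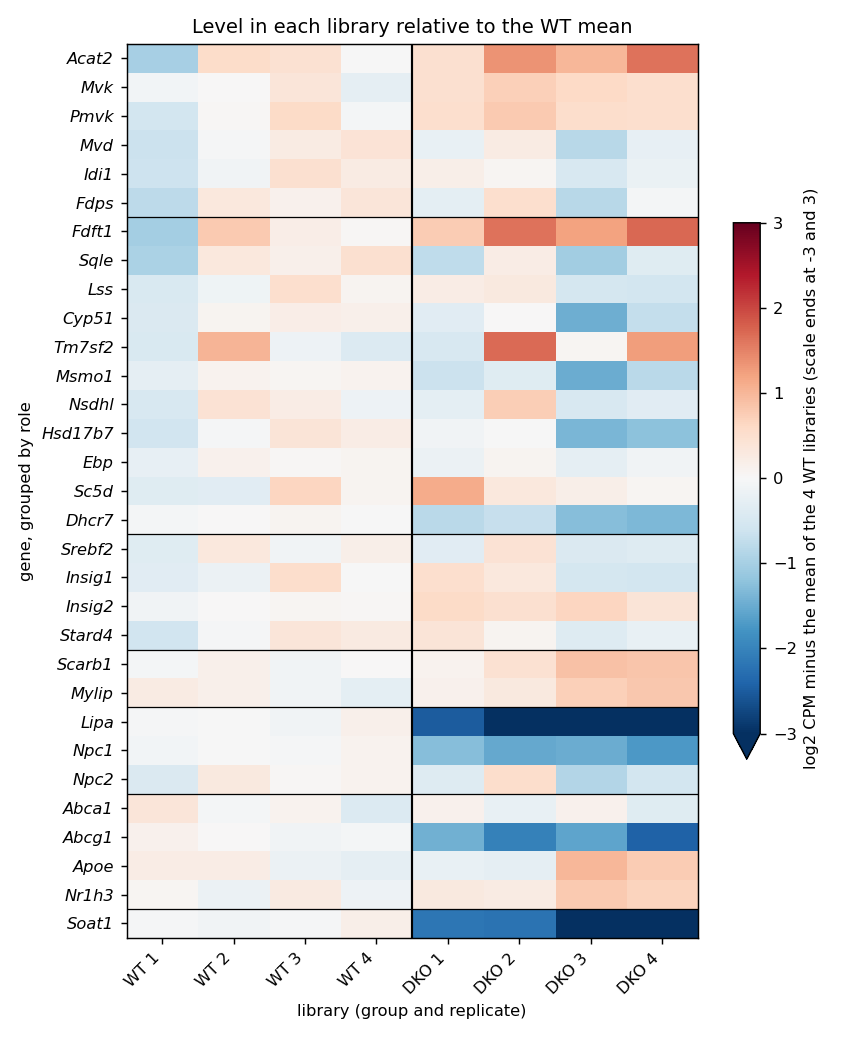
Level of each of the 31 genes (rows, by role) in each library (columns) as log2 CPM minus the mean of the 4 WT libraries, red above and blue below. The rows of Lipa, Npc1, Abcg1 and Soat1 are blue in all 4 knockout libraries, and the column of WT replicate 1 is blue for most synthesis enzymes.

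Of the 4 genes of SREBP2 control and sterol shuttling, 1 rose and 3 did not pass. Srebf2 itself stood at 6.00, 6.70, 6.26 and 6.54 in WT and 6.03, 6.82, 5.93 and 5.99 in the knockout, with overlapping groups and a difference of −0.18 ± 0.22 (limma adjusted p = 0.54). Without knockout replicate 2, its highest library, Srebf2 differed by −0.39 (limma adjusted p = 0.0998). Insig1 and Insig2 encode endoplasmic reticulum proteins that hold the SREBP escort Scap in place when sterols are high. Insig1, which is also an SREBP target, had values of 7.72, 7.89, 8.59 and 8.06 in WT and 8.57, 8.38, 7.55 and 7.50 in the knockout. Its knockout libraries split, replicates 1 and 2 above replicates 3 and 4, and the difference was −0.07 ± 0.28 (limma adjusted p = 0.866). Insig2 had values of 5.55, 5.67, 5.70 and 5.68 in WT against 6.22, 6.14, 6.29 and 6.04 in the knockout. The groups were tight and apart, and Insig2 rose by 0.52 ± 0.09, or 1.44-fold (limma adjusted p = 0.00226; 0.57 and 0.48 within the classes). Stard4, a soluble sterol carrier regulated by SREBP2, differed by −0.04 ± 0.25 (limma adjusted p = 0.918). The calls of Insig2, Dhcr7, Lipa, Npc1, Abcg1 and Soat1 held under all 17 settings tried.

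Other genes of the pathway, from lists of further genes, placed these values in context. Of 14 genes of SREBP processing and sterol-regulated degradation, 4 rose and 3 fell (median 0.07), shares of 28.6% and 21.4% beside 22.7% and 16.1% of all tested genes. Srebf1, which encodes the SREBP1 forms that drive fatty acid synthesis, rose by 1.46 ± 0.23 (limma adjusted p = 0.0012), from 6.63 to 7.46 in WT to 8.10 to 9.0 in the knockout. The proteases that release SREBPs in the Golgi went opposite ways: Mbtps2 changed by −0.86 ± 0.10 and Mbtps1 by 0.43 ± 0.13. The call of Mbtps1 held under only 8 of the 17 settings tried and ended, among others, with median centring (0.29, adjusted p = 0.053). That of Mbtps2 held under all 17. Tmem97 and Erlin1, membrane proteins of the endoplasmic reticulum, changed by −0.67 ± 0.21 and −0.31 ± 0.10, and both calls ended under several settings.

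Of 12 lipoprotein and scavenger receptors and their partners, 5 fell and 1 rose (median −0.84), shares of 41.7% and 8.33% beside the 16.1% lower and 22.7% higher of all tested genes. Msr1, the macrophage scavenger receptor for modified lipoproteins, went from 7.34, 7.40, 7.42 and 7.38 in WT to 4.79, 4.11, 3.95 and 4.37, a change of −3.08 ± 0.17 (limma adjusted p = 1.17e-05). Lrp1, a large endocytic receptor, changed by −1.08 ± 0.16. The macrophage markers fell with these receptors (16 of 17 lower, median −2.25), and their part in the falls was not tested. Gpihbp1, which anchors lipoprotein lipase on capillary endothelium, rose by 1.28 ± 0.16 (limma adjusted p = 0.000349), and all 5 endothelial markers rose with it, by 0.81 to 1.01. Their part in that rise was not tested.

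Of 13 sterol carriers and ester hydrolases, 3 rose and 3 fell (median 0.15), 23.1% each way, so that the share of rises was near the 22.7% of all tested genes. Besides Lipe, the caveolar protein gene Cav1 (1.15 ± 0.22) and the peroxisomal sterol carrier Scp2 (0.81 ± 0.18) rose. Stard3 and Stard3nl, which tether late endosomes to the endoplasmic reticulum, changed by −0.84 ± 0.12 and −0.55 ± 0.15 together with Nceh1. Of 11 LXR partners and LXR-linked genes, 3 rose and 2 fell (median 0.02), and these shares of 27.3% and 18.2% were near those of all tested genes. Rxra, the partner receptor of LXR, rose by 1.00 ± 0.11, and Apoc1 and the exporter Abcg4 rose by 1.85 ± 0.37 and 2.04 ± 0.41. Abcg4 rested on few reads, 5, 19, 3 and 6 in WT replicates 1 to 4. In knockout replicates 1 to 4 it had 15, 324, 211 and 55. Cd5l, a macrophage-secreted protein, and Pltp, a phospholipid transfer protein, changed by −4.16 ± 0.57 and −1.60 ± 0.24. Among 6 oxysterol enzymes 2 rose, Cyp27a1 (0.61 ± 0.18) and Hsd3b7 (0.42 ± 0.15), and among 10 genes of the non-sterol isoprenoid branch 2 rose, Coq2 (0.75 ± 0.13) and Fnta (0.42 ± 0.13). These are 33.3% and 20% of the lists, of the order of the 22.7% of all tested genes that rose. No gene of these last 2 lists fell, also at an unadjusted limma p under 0.05 (0 in each). Under median centring, which lowers all changes by about the median of all genes, Cyp27a1, Hsd3b7 and Fnta lost their calls (0.47, 0.27 and 0.28, adjusted p of 0.0822, 0.137 and 0.107). Their calls ended under other settings too, and held under only 12, 5 and 8 of the 17 settings tried, in that order. The call of Coq2 held under all 17.

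**Figure D5:**
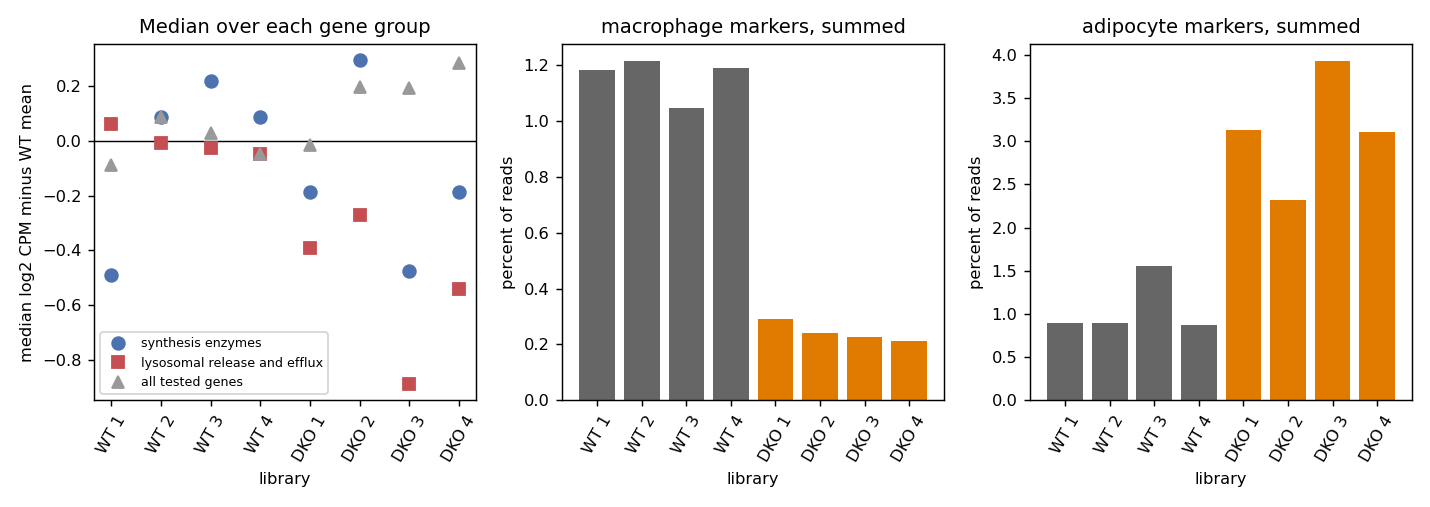
Left, the median over the 17 synthesis enzymes (circles), the 7 release and efflux genes (squares) and all tested genes (triangles) of log2 CPM minus the WT mean, for each library. Middle and right, the percent of reads from 17 macrophage and 12 adipocyte markers in each library (WT grey, knockout orange), with the macrophage share lower and the adipocyte share higher in all 4 knockout libraries.

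Start-site sequences were examined because SREBPs act on promoters together with NF-Y, a factor that binds CCAAT. RefSeq windows (GRCm38.p6, 250 bases before to 50 after each start) were at hand for 24 of the 31 measured members. CCAAT, read on both strands (ATTGG on the other), occurred in 20 of these 24, against 42.4% of the 10396 tested genes with a window and 37.4% of all windows. By role these were 13 of 14 synthesis enzymes (all but Acat2), 3 of 3 SREBP2 regulators (Srebf2, Insig1 and Insig2), both lysosomal genes with a window, Mylip and Soat1, and 0 of 3 efflux genes (Abca1, Apoe and Nr1h3). At least 2 matches in a window were held by 11 of the 24 members and 16.1% of the tested genes. The sterol regulatory element in the form TCACNCCAC occurred in 0 of the 24 and in 1.39% of tested genes. Hmgcs1, the listed gene without levels here and thus outside the 24, held this form at −137 to −129 from its start. The lysosomal CLEAR element (the palindrome that holds an E-box at its centre) occurred in 0 of the 24 and in 0.741% of tested genes, and the E-box CACGTG itself in 5 of the 24 (Abca1, Dhcr7, Hsd17b7, Insig1 and Sc5d) and in 11.4%. The 24 members share the route for which they were chosen, so these shares are a description.

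The stretches that hold the CCAAT matches are printed for the 6 members that rose or fell and had one before the start, 5′ to 3′ on the gene's strand with the matches in capitals.
Mvk, chr5:114444086-114444268, plus strand: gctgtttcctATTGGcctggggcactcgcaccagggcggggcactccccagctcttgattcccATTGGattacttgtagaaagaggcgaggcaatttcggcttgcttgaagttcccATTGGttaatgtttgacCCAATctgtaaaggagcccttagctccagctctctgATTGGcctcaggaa
Insig2, chr1:121332604-121332735, minus strand: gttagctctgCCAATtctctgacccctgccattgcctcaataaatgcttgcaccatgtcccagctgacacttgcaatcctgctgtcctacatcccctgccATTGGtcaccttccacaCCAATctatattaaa
Msmo1, chr8:64733619-64733748, minus strand: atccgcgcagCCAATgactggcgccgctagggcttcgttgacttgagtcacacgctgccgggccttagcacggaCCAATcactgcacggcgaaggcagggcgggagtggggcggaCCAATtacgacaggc
Dhcr7, chr7:143830119-143830179, plus strand: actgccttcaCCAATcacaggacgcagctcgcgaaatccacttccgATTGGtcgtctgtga
Soat1, chr1:156474344-156474368, minus strand: cgcaggaccaCCAATggcatcccgg
Lipa, chr19:34527486-34527510, minus strand: gactgccctgATTGGctgtgtgaaa
Mvk held 5 matches and rose, Insig2 held 3 and rose, Msmo1 held 3 and fell, and Dhcr7 held 2 and fell, while Soat1 and Lipa held 1 each and fell. Members with the motif thus changed in both directions. The first bases of the matches lay between −173 and −14 from the start.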

How the data were processed

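Per the labels' protocols, a stranded TruSeq kit turned polyA RNA into libraries for single-end sequencing. Trimmomatic, TopHat2, featureCounts, limma and mouse build mm9 are named in the submitters' processing notes, while versions, strand setting and gene filter are unknown here. The authors deposited voom log2 values (log2 CPM) of 16505 genes in 1 table keyed by symbol, and columns were matched to samples by title. Undoing the voom offsets (0.5 per count, 1 per total) gave back whole reads for 100% of values within 0.01 read. Depth limits low genes in the shallow libraries, and counting error is only a part of the spread between libraries.

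Limma 3.58.1 in R 4.3.3 (lmFit, eBayes with trend, group as the only term, two-sided) was fitted to genes with a mean of at least 0. The scripts were tested on simulated reads. The members, lists and alternatives were chosen with earlier results of these data known. Named genes were all members, the first gene of each marker list, and from each further list up to 3 higher and 3 lower calls with the smallest p. Some genes that this rule takes are not reported here. Ctsb and Acat3 were added after their values were seen. The alternatives were log2(CPM + 1), no filter or a mean of at least 2, median centring, quantile normalization, voom on recovered reads scaled by median ratios, the replicate block, the ribosomal RNA class, leaving out epididymis-rich libraries and leaving out each library. Promoter and untranslated sequences are of GRCm38, not the authors' build, and were matched by symbol (93.3% of tested genes for the latter). Plots used matplotlib 3.10.9.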

Additional observations from a re-analysis of the deposited data

Results flagged for a closer look

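In 4 of 66 groups of 4 libraries (31 genes and 2 gene group medians, each in WT and knockout), 1 library lay so far from the other 3 that its gap exceeded the 95% critical value of Dixon's ratio of gap to range, which chance gives in about 1 of 20 groups. Of these, 3 were high values in knockout replicate 2, one of the libraries with over 1% epididymis reads: Pmvk at 6.18 (next value 5.90), Nsdhl at 6.66 (next 5.63) and Srebf2 at 6.82 (next 6.03). The other was a low Msmo1 value in WT replicate 1, 5.97 against 6.30 for the next. The part of epididymis reads in these values was not tested. Without the library concerned, the change was 0.51 for Pmvk, −0.37 for Nsdhl (−0.10 with all libraries), −0.39 for Srebf2 (−0.18 with all libraries) and −0.91 for Msmo1, each with the same sign as before.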

How the results depend on the processing

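Of the members, 6 kept their call under all 17 settings (Lipa, Npc1, Soat1, Abcg1, Dhcr7 and Insig2). The number of members that rose was 6 with all libraries, 3 with the ribosomal class in the fit, 2 without the epididymis-rich libraries and 3 to 7 with 1 library left out (3 without WT replicate 1 or 4 or knockout replicate 3 or 4), while the number that fell was 5 to 8 and the median −0.26 to 0.01 with 1 library left out. For synthesis enzymes the rises numbered 1 without the epididymis-rich libraries and 2 to 4 with 1 library left out, the falls 1 to 3 (1 without WT replicate 4), and the median change −0.30 (without WT replicate 1) to 0.01 (without knockout replicate 3), a change of sign. For lysosomal release and efflux, the single rise (Nr1h3) became 0 with median centring, with voom on whole reads, with the ribosomal RNA class, without the epididymis-rich libraries and without WT replicate 1, 2 or 4 or knockout replicate 3 or 4 (0 to 1). The unadjusted limma p of Nr1h3 was 0.0639 with median centring and 0.0456, 0.0297 and 0.0387 in the other 3 of the named fits. The falls numbered 3 to 4 and the median ran from −0.61 (without knockout replicate 2) to −0.15 (without knockout replicate 3), and −0.54 without the epididymis-rich libraries. The median of all tested genes, 0.18, was 0.0333 with median centring, 0.0359 with quantile normalization, 0.0385 with voom and 0.0601 with the ribosomal RNA class, and 0.14 to 0.23 with 1 library left out. Centring gave 2444 higher and 2825 lower genes, quantile normalization 2389 and 2647, voom 2414 and 2964, against 3137 and 2216, so the higher share of calls fell by over 10 percentage points.

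Signs changed for members that did not pass. With the ribosomal RNA class Idi1 was 0.0183, Lss 0.0169, Tm7sf2 −0.0816, Insig1 0.18, Stard4 0.12 and Abca1 0.00631, and Abca1 was 0.10 without the epididymis-rich libraries. With 1 library left out, Idi1 ran from −0.32 to 0.0536, Fdps −0.43 to 0.0532, Lss −0.30 to 0.021, Nsdhl −0.37 to 0.0444, Insig1 −0.26 to 0.11, Stard4 −0.23 to 0.0817 and Abca1 −0.22 to 0.0371. The cause of these changes was not tested. With the replicate number as a block, 7 members rose and 6 fell, Pmvk being the addition (adjusted p = 0.0456). Whether equal numbers mark paired samples is unknown here. Deviations of same-numbered libraries correlated at 0.362, 0.79, 0.239 and −0.359 across genes, and those of unlike-numbered ones at −0.778 to 0.574. These values cannot decide it, because replicate 2 of both groups (0.79) was rich in epididymis reads.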
